A study of Homo sapiens with 6 samples.

Results

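The genes described here encode the proteins of the mitochondrial ribosome that carry an MRPL or MRPS name. They were taken by symbol, as MRPL or MRPS followed by a number and at most 1 letter, with protein-coding genes kept and pseudogenes left out, which gave 78 of the 62700 genes of the table. The rule itself uses symbols and no measured value. RNA was sequenced from A549 cells, an epithelial line established from a human lung adenocarcinoma, in 3 libraries labelled sgH2AC19 and 3 labelled sgControl. Per the labels, sgH2AC19 stands for A549 knockout derivatives made with a guide RNA against H2AC19, a replication-dependent histone H2A gene, and the sgControl libraries are labelled wild type. The series title links H2AC19 to angiogenesis in lung adenocarcinoma. The labels do not say whether the edited cells were a clone or a pool, or whether libraries of a group came from separate cultures, so each p-value rests on the spread among these libraries, which may be only technical.

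Mitochondria keep a ribosome of their own, which translates the few membrane proteins of the respiratory chain that are encoded in the mitochondrial genome. Its ribosomal RNAs are transcribed inside the organelle, whereas all of its proteins are encoded in the nucleus, made in the cytosol and imported. Many of these proteins have counterparts in bacterial ribosomes, and others were added in the mitochondrial lineage, so that the mammalian particle is unusually rich in protein. By structure 51 of the 78 genes encode proteins of the large subunit, which forms peptide bonds, and 26 encode proteins of the small subunit, which reads the mRNA. MRPS30 and MRPS18A carry a small subunit name but sit in the large subunit, and MRPS36, once counted with the small subunit, is now placed in the 2-oxoglutarate dehydrogenase complex and was kept apart from both.

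The target could not be used to check the labels, since H2AC19 and its near-identical copy H2AC18 were listed at 0 FPKM in all 6 libraries. FPKM count the fragments of a gene relative to its length and to the sequencing total of the library. The totals recovered from the table lay between 35681162 and 45738439 reads, and the members tested had 155 to 6142 reads per library with a median of 1221.5. Epithelial markers were all present (7 of 7 tested), and all were called, 4 higher and 3 lower in sgH2AC19, at log2 fold changes of −0.45 to 0.44. KRT18, the highest of them, averaged 412 FPKM in sgH2AC19 and 302 FPKM in sgControl. Of 8 endothelial and 8 leukocyte markers 0 reached the level needed for a test, with summed levels of 0.690 to 0.821 and 0.922 to 1.41 FPKM in sgH2AC19, and 0.584 to 1.11 and 1.38 to 1.68 FPKM in sgControl. The 8 fibroblast markers summed to 5.38 to 6.27 FPKM in sgH2AC19 and 3.47 to 3.92 FPKM in sgControl, 6 of them under 1 FPKM in every library. The other 2, COL1A1 and LUM, were higher in sgH2AC19. The lower of these 2 averaged 1.01 FPKM over the 6 libraries. It may have reached the level needed for a test only through sgH2AC19, which would leave no way for it to be called lower. CD3E was at 0 in all 6 libraries. The part of these markers in the results was not tested. In bulk RNA, fewer cells of a type and less RNA per cell cannot be told apart.

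The members differed widely in level. Averaged over the 6 libraries, the 74 members that could be tested (at least 1 FPKM in at least 3 libraries) had a median of 12.7 FPKM, with 31 between 1 and 10 FPKM, 30 between 10 and 30 FPKM and 13 above 30 FPKM. The highest and the lowest of them, MRPS35 and MRPL46, were 59.4-fold apart in FPKM. MRPS35 (ENSG00000061794), a small subunit protein without a bacterial counterpart, stood at 63.1, 65.8 and 62.6 FPKM in sgH2AC19 replicates 1 to 3, and at 66.1, 64.4 and 62.8 FPKM in sgControl replicates 1 to 3. The groups overlapped, with a log2 fold change of −0.01 (SE 0.0415, adjusted p = 0.841 by limma). MRPL33, MRPL51 and MRPL45 followed at means of 48.1, 47.8 and 45.7 FPKM over the 6 libraries. MRPL45 lies at the exit of the peptide tunnel, where the ribosome meets the inner membrane, and its log2 fold change was 0.0040 (SE 0.0451, adjusted p = 0.961 by limma).

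At the low end stood MRPL46, MRPS25, MRPS5 and MRPS22, at means of 1.08, 1.11, 1.43 and 2.00 FPKM over the 6 libraries. MRPL46, a large subunit protein, had 1.20, 1.20 and 1.12 FPKM in sgH2AC19, against 1.05, 0.905 and 1.01 FPKM in sgControl. MRPS5, the counterpart of a bacterial small subunit protein, had 1.24, 1.36 and 1.43 FPKM in sgH2AC19, against 1.52, 1.43 and 1.57 FPKM in sgControl. Neither pair of groups overlapped, and neither difference passed the test (limma adjusted p = 0.252 for MRPL46 and 0.347 for MRPS5). These values describe mRNA, and the amount of each protein was not measured.

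The low values lay among members that share exonic bases with other genes. In GENCODE 29 (GRCh38), 41 members share some exonic bases with another gene on either strand and 37 share none. All 37 members without overlap could be tested, and the lowest of them averaged 5.71 FPKM. The 14 members below that level all share exons with another gene, which follows from how the level was set. The share of genes with overlap over the whole table was not worked out. The median was 14.5 FPKM over the 37 without overlap and 8.63 FPKM over the 37 tested members with overlap, and 6.33 FPKM over the 11 tested members with at least 20% of their exonic bases shared. High values occurred with overlap as well, as in MRPL51, which shares 31.3% of its exonic bases with NCAPD2. The sources used here do not state how reads in shared exons were counted or whether strand was used, so the levels of such members are uncertain. Pseudogenes named after a member are listed for 36 of the 78, among them MRPS35, MRPL45, MRPL51 and MRPL57, and their near-identical copies may share reads with the members.

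**Figure D1:**
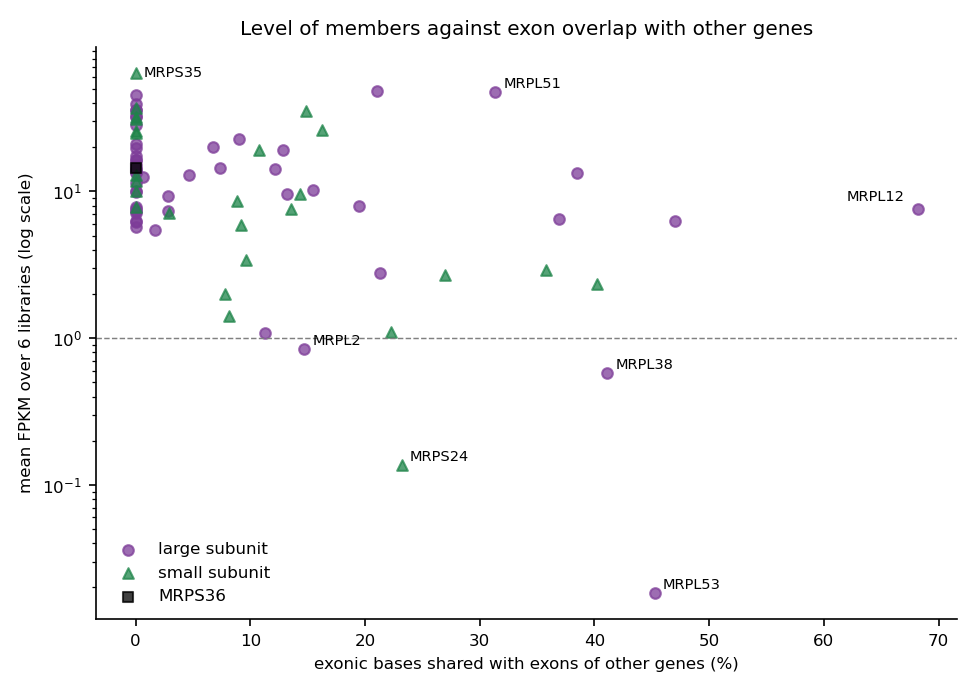
Mean FPKM over the 6 libraries (log scale) of the 78 members against the percentage of their exonic bases shared with exons of other genes, with circles for large subunit, triangles for small subunit and a square for MRPS36. The dashed line marks 1 FPKM. All members without overlap lie at 5.71 FPKM or above, and the 4 members that were not tested, MRPL2, MRPL38, MRPS24 and MRPL53, lie below 1 FPKM and share exons.

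Few members changed in sgH2AC19 cells. Of 74 tested, 2 rose (MRPS34 and MRPL57), 3 fell (MRPL54, MRPL18 and MRPL34) and 69 were not called (limma on FPKM taken as log2(FPKM + 1), with the adjusted p under 0.05 after Benjamini-Hochberg correction over 12871 genes). That is 6.76% of the members tested, where 23.1% of all genes tested were called. The 3 libraries of each group did not overlap in 20 members, 7 higher and 13 lower in sgH2AC19, against 43.2% of all genes tested, 21.5% higher and 21.7% lower. At an unadjusted p under 0.05 there were 15 members, 3 higher and 12 lower, against 37.6% of all genes tested. The log2 fold changes of the members ran from −0.30 to 0.46, with a median size of 0.0904, where all genes tested had a median size of 0.130. Their fitted errors were close to those of other genes, with a median SE of 0.0632 for the members and 0.0696 for all genes tested. The intervals of the members that were not called bound what could have been missed, and 67 of these 69 had a 95% interval within 0.5 of 0 on the log2 scale. The exceptions were MRPS36, with a lower bound of −0.53, and MRPL36, with an upper bound of 0.59. The limit of 0.5 is wider than the change of any member called. Only 52 of the 69 had an interval within 0.3 of 0, so changes of the size of those called could have been missed.

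**Figure D2:**
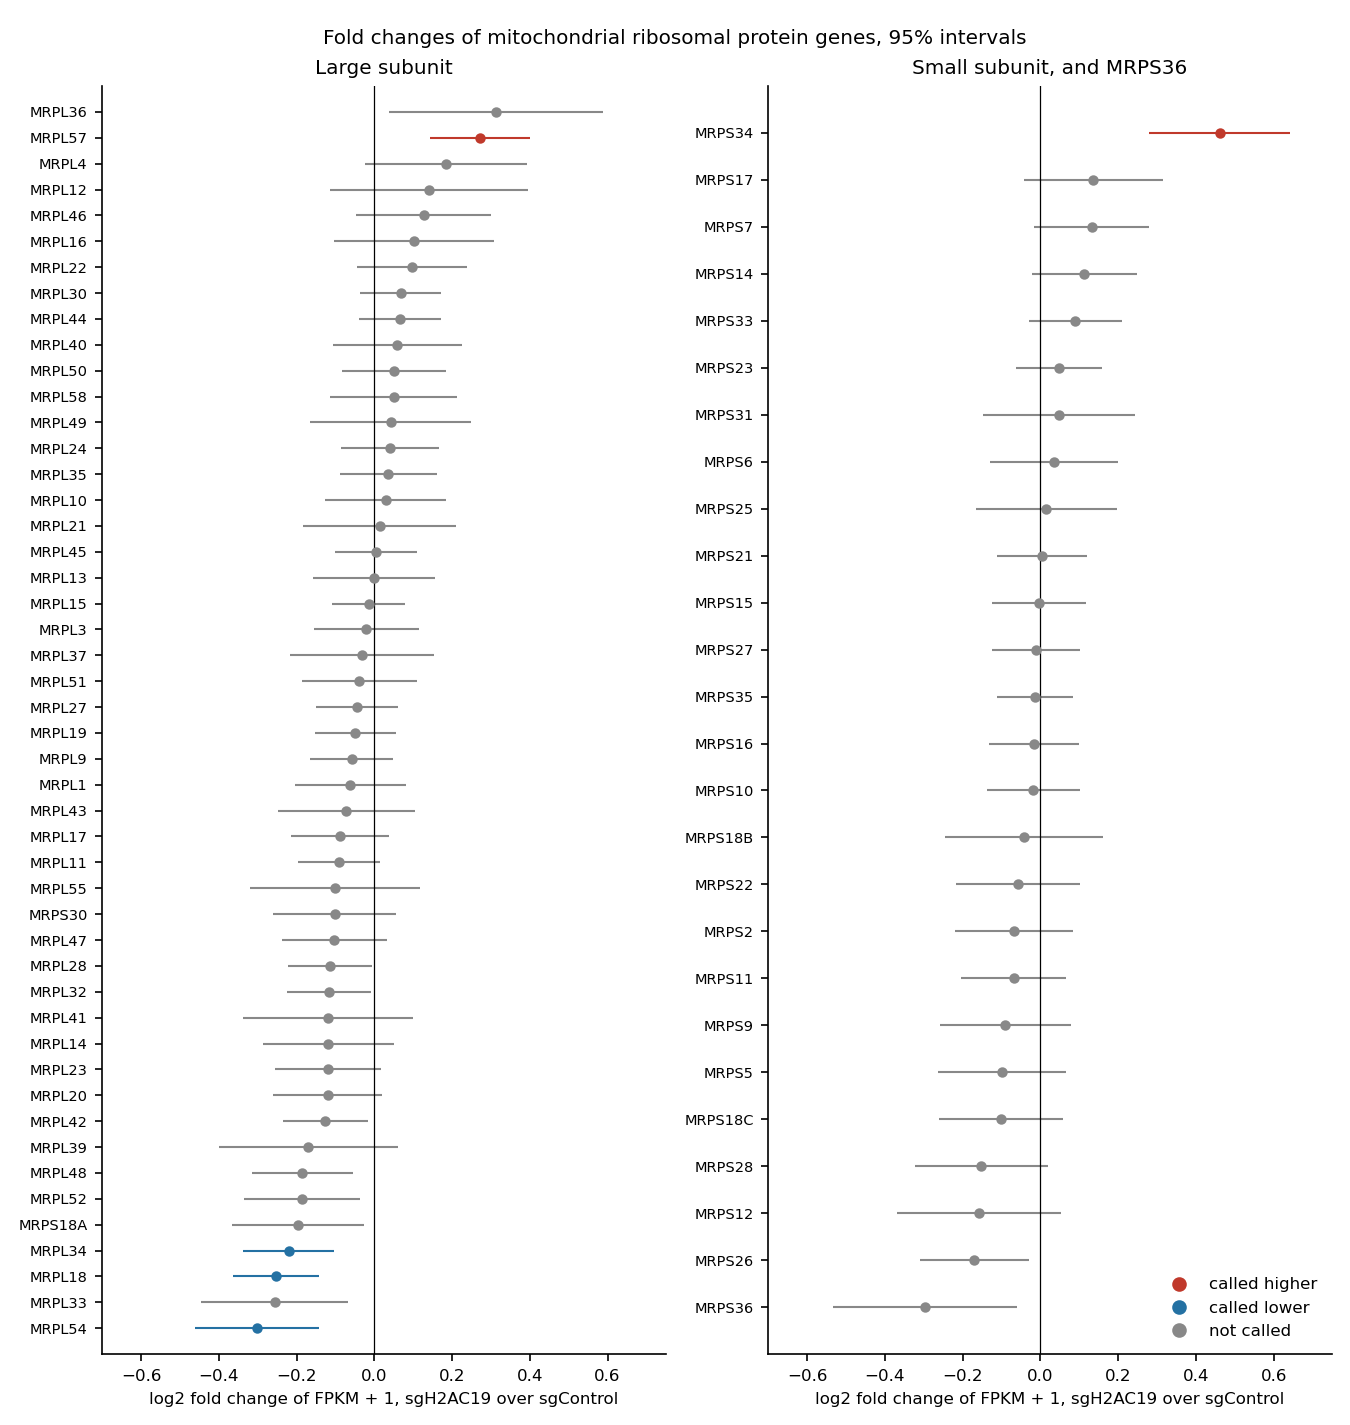
Log2 fold change of FPKM + 1 (sgH2AC19 over sgControl) of the 74 members tested, with 95% intervals from limma, large subunit on the left and small subunit with MRPS36 on the right. Red marks the members called higher, blue those called lower and grey the 69 not called. Most intervals cross 0, and MRPS34 at 0.46 stands furthest from it.

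The largest rise was that of MRPS34 (ENSG00000074071, chromosome 16, 1771890 to 1773155 on the minus strand in GRCh38), a small subunit protein without a bacterial counterpart that is needed for a stable small subunit in mice and in human cells. It stood at 32.4, 28.7 and 26.5 FPKM in sgH2AC19 replicates 1 to 3, and at 21.9, 19.8 and 20.8 FPKM in sgControl replicates 1 to 3. All sgH2AC19 libraries were above all sgControl libraries, with replicate 1 highest in both groups. The means were 29.2 ± 2.99 FPKM in sgH2AC19 and 20.9 ± 1.06 FPKM in sgControl (SD, n = 3 each), which gave a log2 fold change of 0.46 (SE 0.0771, 95% interval 0.28 to 0.64, adjusted p = 0.00722 by limma). MRPS34 has no exonic overlap in GENCODE 29, and it was called under all 14 alternatives, at adjusted p-values up to 0.0356.

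MRPL57 (ENSG00000173141, chromosome 13, 21176645 to 21179084 on the plus strand), a small protein of the large subunit without a bacterial counterpart, also rose. It had 6.82, 6.07 and 6.13 FPKM in sgH2AC19, against 5.05, 5.14 and 5.03 FPKM in sgControl. The sgControl libraries lay within a narrow band, and replicate 1 was the highest of the sgH2AC19 libraries. The log2 fold change was 0.27 (SE 0.0550, adjusted p = 0.0140 by limma). Without sgControl replicate 1 or 3 the adjusted p was 0.0525 or 0.0534, and the call was lost. The table lists 5 pseudogenes named after MRPL57, so its values are uncertain.

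The 3 members that fell all belong to the large subunit. MRPL18 (ENSG00000112110, chromosome 6, 159789812 to 159798436 on the plus strand) is the counterpart of bacterial L18 in the central protuberance, the part of the large subunit that faces the head of the small subunit. It had 33.0, 32.0 and 33.5 FPKM in sgH2AC19, against 40.5, 40.2 and 37.4 FPKM in sgControl. The sgH2AC19 libraries were close together and all below the sgControl libraries, of which replicate 3 was lowest. MRPL18 averaged 32.9 ± 0.748 FPKM in sgH2AC19 and 39.4 ± 1.73 FPKM in sgControl (SD, n = 3 each), which gave a log2 fold change of −0.25 (SE 0.0470, adjusted p = 0.0105 by limma), and it was called under all 14 alternatives, at adjusted p-values up to 0.0465.

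MRPL54 (ENSG00000183617, chromosome 19, 3762664 to 3768575 on the plus strand), which has no bacterial counterpart, had 8.50, 9.90 and 8.34 FPKM in sgH2AC19, against 10.8, 11.5 and 11.3 FPKM in sgControl. Replicate 2 of sgH2AC19 came nearest to the sgControl libraries without reaching them. Its log2 fold change was −0.30 (SE 0.0680, adjusted p = 0.0203 by limma), the furthest fall of any member tested. Without sgH2AC19 replicate 1, sgControl replicate 2 or sgControl replicate 3 the adjusted p was 0.0604, 0.0726 or 0.0681, and with all genes above 0 FPKM tested it was 0.0715. MRPL34 (ENSG00000130312, chromosome 19, 17292609 to 17306843 on the plus strand), the counterpart of bacterial L34, had 9.20, 8.34 and 9.06 FPKM in sgH2AC19, against 10.5, 10.4 and 10.6 FPKM in sgControl. The groups were apart, with a log2 fold change of −0.22 (SE 0.0499, adjusted p = 0.0204 by limma). The call of MRPL34 was lost without sgH2AC19 replicate 2 (0.0515) or sgControl replicate 1, 2 or 3 (0.0693, 0.0649 and 0.0733), over all genes above 0 FPKM (0.0518) and with voom (0.0552), and 13.2% of its exonic bases are shared with ABHD8.

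**Figure D3:**
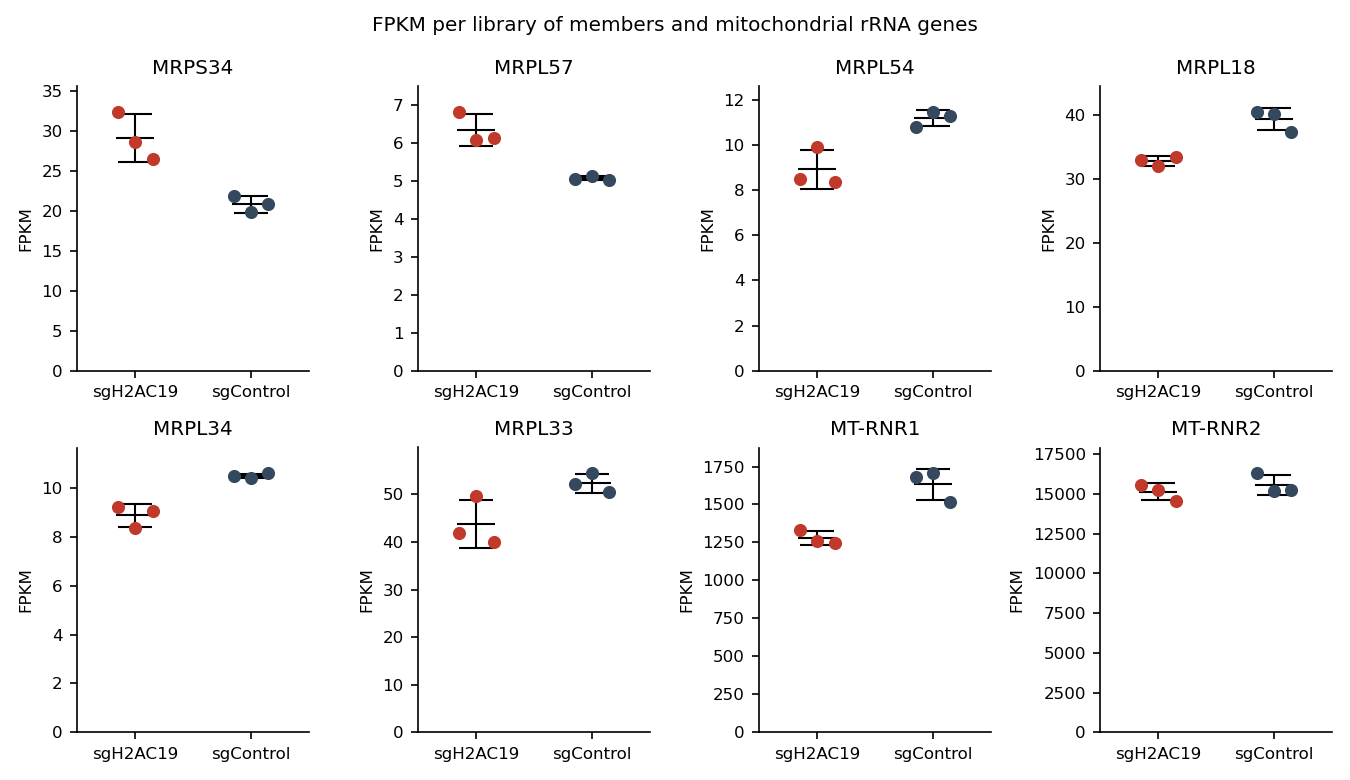
FPKM per library of the 5 members called, of MRPL33 and of the mitochondrial rRNA genes MT-RNR1 and MT-RNR2, with sgH2AC19 libraries (red) left of sgControl libraries (dark blue) and lines for mean ± SD (n = 3 each). The libraries of the 2 groups do not overlap in the first 7 panels and overlap in MT-RNR2.

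The promoters of these genes are shown because many nuclear genes for mitochondrial proteins share short motifs near their start, among them those bound by the ETS family factor GABP, by NRF1 and by YY1. RefSeq promoter windows (GRCh38.p14, 250 bases before to 50 bases after a start, 300 bases in all) were matched for 69 of the 78 members by symbol. Each stretch below is printed on the strand of its gene, 5′ to 3′. Capitals mark CCGGAAG, an ETS core, or GCGC, any base and TGCGC in a row, an NRF1 motif, on either strand, and lower case the rest. MRPS34, MRPL54 and MRPL33 are shown at the 30 bases just before a RefSeq start, and MRPL51, MRPL57 and MRPL45 at the 30 bases that hold their motifs. MRPL18 is shown at the stretch outside annotated exons between its start and that of TCP1, which holds no exact match to the motifs.
MRPS34 (chr16:1773135-1773164, minus): tCTTCCGGtgaCTTCCGGccggaccgctga
MRPL57 (chr13:21176584-21176613, plus): GCGCAGGCGCagtcctctctcgcgagagcc
MRPL54 (chr19:3762652-3762681, plus): cactgacgtCTTCCGGaaacgtgcacttgc
MRPL18 (chr6:159789750-159789811, plus): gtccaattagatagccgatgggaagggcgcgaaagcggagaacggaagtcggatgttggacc
MRPL33 (chr2:27771689-27771718, plus): tcttccagaaccgggccgtgccCCGGAAGc
MRPL51 (chr12:6493352-6493381, minus): CTTCCGGcaggcggaCCGGAAGcactgagg
MRPL45 (chr17:38296979-38297008, plus): GCGCACGCGCggccgtactccgccctcctt
The ETS core and the YY1 motif were more common in the members' windows than over all protein-coding genes, and the NRF1 motif was near that share. CCGGAAG on either strand was held by 30 of the 69 members (43.5%), against 34.9% of cytosolic ribosomal protein genes, 32.8% of nuclear genes for oxidative phosphorylation subunits and 16.5% of 15843 protein-coding genes with a window. AAGATGGCG is a YY1 motif whose first 3 letters can overlap the last 3 of the ETS core. It was held by 13 members (18.8%), against 7.94% of cytosolic ribosomal protein genes, 14.1% of oxidative phosphorylation genes and 3.21% of protein-coding genes. The NRF1 motif was held by 9 members (13.0%), against 11.1% of cytosolic ribosomal protein genes, 16 of 64 oxidative phosphorylation genes and 9.67% of protein-coding genes. In all 45 members held at least 1 of the 3 motifs and 4 held both the ETS core and the YY1 motif. The like shares over all protein-coding genes were not worked out. Members had 1.23 windows each and protein-coding genes 1.40. A match describes letters and not binding, and the members called in either direction held both kinds: MRPS34, which rose, and MRPL54, which fell, hold an ETS core, and MRPL57, which rose, and MRPL34, which fell, hold an NRF1 motif. MRPL18 holds CCGGAAG in a RefSeq window, but not within the 250 bases before the start next to its printed stretch. Its printed stretch holds acggaag, which was not counted because only exact letters were searched.

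Beyond the 5 called, a few members lay near the threshold. MRPL33, the counterpart of bacterial L33, had 41.9, 49.6 and 39.97 FPKM in sgH2AC19, against 52.2, 54.4 and 50.5 FPKM in sgControl. The groups did not overlap, with sgH2AC19 replicate 2 just below the lowest sgControl library. Its log2 fold change was −0.26 (SE 0.0806, adjusted p = 0.0582 by limma), and 5 of 14 alternatives called it, among them the fit without sgH2AC19 replicate 2 (adjusted p = 0.0125). MRPL33 shares 21.1% of its exonic bases with BABAM2. The next 3 were chosen after their values had been seen. MRPL36, the counterpart of bacterial L36, had the second-largest positive value, with 12.6, 14.1 and 11.2 FPKM in sgH2AC19, against 9.61, 8.65 and 11.8 FPKM in sgControl. The groups overlapped through sgControl replicate 3 (log2 fold change 0.31, SE 0.117, adjusted p = 0.0955 by limma). MRPL36 was called without that library (0.0422) and under no other alternative. MRPS36 had 12.6, 15.1 and 11.3 FPKM in sgH2AC19, against 17.3, 14.9 and 16.1 FPKM in sgControl. Its groups overlapped through sgH2AC19 replicate 2 (log2 fold change −0.30, SE 0.101, adjusted p = 0.0740 by limma). MRPS36 was called only without that library (0.0243) and with voom. In MRPL33, MRPL36 and MRPS36 the library left out was the one nearest to or within the other group. Calls gained by leaving it out therefore add no support. MRPL48, a large subunit protein without a bacterial counterpart, lay at the threshold (log2 fold change −0.19, SE 0.0552, adjusted p = 0.0501 by limma) and was called without sgH2AC19 replicate 3 (0.0492).

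The subunits did not move as blocks. Of 48 large subunit members tested, 1 rose and 3 fell (8.33% called by limma), with a median log2 fold change of −0.05. At an unadjusted p under 0.05 there were 2 higher and 10 lower, and 30 of the 48 were below 0. Of 25 small subunit members tested, 1 rose and 0 fell (4.0% called by limma), and the median was −0.01. At an unadjusted p under 0.05 there were 1 higher and 1 lower. Of all genes tested 23.1% were called, and 18.6% were higher and 18.9% lower at an unadjusted p under 0.05. Members shared with bacterial ribosomes had 0 higher and 2 lower of 42 tested (4.76% called by limma) and a median of −0.03. At an unadjusted p under 0.05 they had 1 higher and 5 lower. Members specific to mitochondrial ribosomes had 2 higher and 1 lower of 27 tested (11.1% called by limma) and a median of −0.01. At an unadjusted p under 0.05 they had 2 higher and 5 lower. Each of these shares called is below the 23.1% of all genes tested. Over all 74 members the median was −0.04, with 28 above and 46 below 0, beside −0.01 over all genes tested. When FPKM were rescaled without the genes of the mitochondrial genome, the members' median was 0.01 and that of all genes 0.03, so the sign of the members' median depends on the scaling. The difference between the subunits was not tested.

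Summed over the 78 members, the level was 1217, 1206 and 1133 FPKM in sgH2AC19 replicates 1 to 3, and 1216, 1200.5 and 1231 FPKM in sgControl replicates 1 to 3. The groups overlapped, and sgH2AC19 replicate 3 was the lowest library. It also stood apart from its group over all genes, at −16.0 on the second principal component, with replicates 1 and 2 at 8.09 and 8.32. The members' median log2 deviation from their mean was 0.02, 0.01 and −0.08 in sgH2AC19, and 0.01, −0.01 and 0.04 in sgControl, lowest in that same library. Without it the members' median log2 fold change was −0.01, with 2 members higher and 4 lower, which were the 5 called before and MRPL48. The small subunit members summed to 394 ± 18.8 FPKM in sgH2AC19 and 392.2 ± 3.51 FPKM in sgControl, and the large subunit members to 778 ± 25.4 FPKM in sgH2AC19 and 808 ± 12.01 FPKM in sgControl (SD, n = 3 each). The members took 0.377% of all FPKM in sgH2AC19 and 0.384% in sgControl.

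The RNA of the small subunit fell while that of the large subunit did not pass the test. MT-RNR1, the mitochondrial gene for the small subunit rRNA, had 1330, 1257 and 1248 FPKM in sgH2AC19, against 1678, 1705 and 1514 FPKM in sgControl. All sgH2AC19 libraries were below all sgControl libraries. The log2 fold change was −0.35 (SE 0.0554, adjusted p = 0.00577 by limma), and the call was lost only when all genes above 0 FPKM were tested (0.0899). MT-RNR2, the gene for the large subunit rRNA, had 15568, 15262 and 14544 FPKM in sgH2AC19, against 16279, 15190 and 15218 FPKM in sgControl. These groups overlapped, with a log2 fold change of −0.04 (SE 0.0458, adjusted p = 0.554 by limma) that was 0.0020 when FPKM were rescaled without mitochondrial genome genes. Both rRNAs are cut from one precursor transcript, and a ratio taken within a library does not depend on its scaling. MT-RNR1 stood at 8.46 ± 0.189% of MT-RNR2 in sgH2AC19 and 10.5 ± 0.655% in sgControl (SD, n = 3 each). The log2 ratio differed by −0.31, with every sgH2AC19 library below every sgControl library (two-sided exact permutation p = 0.1, the smallest that 3 against 3 libraries allow). The labels name an mRNA-seq kit, and how its capture of rRNA bears on this difference was not tested.

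Genes that act on the mitochondrial ribosome were mostly not called, where 23.1% of all genes tested were called. Of 5 subunits that carry other names, DAP3, PTCD3, CHCHD1, AURKAIP1 and GADD45GIP1, 0 were called (limma, with 1 at an unadjusted p under 0.05), and their median log2 fold change was −0.08. Of 23 tested genes for ribosome assembly and rRNA maturation, 1 rose and 0 fell (limma, with 3 higher and 1 lower at an unadjusted p under 0.05), and the median was 0.07. The one that rose was RCC1L (ENSG00000274523), a factor needed for assembly of both subunits. It had 8.60, 7.95 and 7.70 FPKM in sgH2AC19, against 4.93, 4.76 and 5.82 FPKM in sgControl. The groups were well apart, with a log2 fold change of 0.56 (SE 0.0763, adjusted p = 0.00342 by limma), and all 14 alternatives called it. The count of higher assembly genes was 4 without sgH2AC19 replicate 3 and 2 when FPKM were rescaled without mitochondrial genome genes. Of 13 tested translation factors 0 were called (limma, with 2 higher and 0 lower at an unadjusted p under 0.05), and the median was 0.07. Without sgH2AC19 replicate 3, 1 of the translation factors was called higher, and with the same rescaling 2 were. TSFM, a mitochondrial elongation factor named after its values were seen, averaged 0.188 FPKM in sgH2AC19 and 0.191 FPKM in sgControl and was too low for a test.

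Among genes for mitochondrial transcription and mRNA stability 2 of 11 fell (18.2%, by limma), at small sizes. Of all genes tested 23.1% were called, 11.0% of them lower, so this count is near that share. SLIRP, a partner of the mRNA-stabilising protein LRPPRC, had 10.5, 10.0 and 8.81 FPKM in sgH2AC19, against 11.8, 11.9 and 11.2 FPKM in sgControl (log2 fold change −0.23, SE 0.0669, adjusted p = 0.0437 by limma). SSBP1, which binds single-stranded mitochondrial DNA, had a log2 fold change of −0.18 (SE 0.0519, adjusted p = 0.0445 by limma). Both lost the call when FPKM were rescaled without mitochondrial genome genes (0.0587 and 0.0730) and without sgH2AC19 replicate 2 (0.0798 and 0.0620) or sgControl replicate 1 (0.121 and 0.129), 2 (0.130 and 0.135) or 3 (0.0837 and 0.0874), and SSBP1 also without sgH2AC19 replicate 1 (0.0639).

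Among 10 regulators of nuclear genes for mitochondria 2 rose and 0 fell (limma, with 2 higher and 0 lower at an unadjusted p under 0.05), 2 of 10 beside the 23.1% called of all genes tested. PPARGC1A, a coactivator of such genes, had 1.11, 1.14 and 1.18 FPKM in sgH2AC19, against 0.703, 0.519 and 0.546 FPKM in sgControl (log2 fold change 0.43, SE 0.0840, adjusted p = 0.0118 by limma). Only its sgH2AC19 values reached the filter on low values, which leaves no way for it to be called lower, and it was not tested in the fits that left out an sgH2AC19 library or asked for a mean of 1 FPKM. GABPB2, a beta subunit gene of the GABP family, had a log2 fold change of 0.21 (SE 0.0606, adjusted p = 0.0430 by limma). The call of GABPB2 was lost without any 1 library other than sgH2AC19 replicate 3, at adjusted p-values of 0.107 and 0.106 without sgH2AC19 replicate 1 or 2, and 0.132, 0.0622 and 0.132 without sgControl replicate 1, 2 or 3. It was also lost with the replicate number as a block (0.0678) and over all genes above 0 FPKM (0.120).

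The proteins that the mitochondrial ribosome makes are encoded by 13 genes of the mitochondrial genome. Of these 0 were called (limma, with 2 higher and 0 lower at an unadjusted p under 0.05), where 23.1% of all genes tested were called. Their median log2 fold change was 0.08, and 12 of 13 were above 0. When FPKM were rescaled without the mitochondrial genome 1 was called higher, with a median of 0.12. The mitochondrial genome took 31.7 ± 0.904% of all FPKM in sgH2AC19 and 30.3 ± 0.775% in sgControl (SD, n = 3 each).

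The cytosolic ribosome differed from the mitochondrial one in its counts. Of 78 tested genes for cytosolic ribosomal proteins 0 rose and 56 fell (71.8%, by limma, and 0 higher and 67 lower at an unadjusted p under 0.05). Their median log2 fold change was −0.21, and 43 fell, with a median of −0.16, when FPKM were rescaled without mitochondrial genome genes. The count was 26, 23 and 22 without sgControl replicate 1, 2 or 3, 33 without sgH2AC19 replicate 2 and 20 over all genes above 0 FPKM. Among them RPL36 averaged 39.4 ± 1.15 FPKM in sgH2AC19 and 51.2 ± 0.807 FPKM in sgControl (SD, n = 3 each), which gave a log2 fold change of −0.37 (limma adjusted p = 0.00166). RPL27A and RPL7A had log2 fold changes of −0.33 and −0.26. Cytosolic ribosomal protein genes took 2.94 ± 0.125% of all FPKM in sgH2AC19 and 3.38 ± 0.0486% in sgControl, and their groups did not overlap. The nuclear genes for oxidative phosphorylation subunits, which work beside the products of the mitochondrial ribosome, had 5 higher and 10 lower of 72 tested and a median of −0.08. That is 20.8% called, near the 23.1% of all genes tested, and the count of lower genes was 1, 2 and 1 without sgControl replicate 1, 2 or 3, 3 without sgH2AC19 replicate 2, 6 with the rescaling and 1 over all genes above 0 FPKM. SDHB, the iron-sulfur subunit of complex II, rose by 0.28 on the log2 scale (SE 0.0474, adjusted p = 0.00773 by limma), and ATP5PB of ATP synthase by 0.28. NDUFB3, COX7B and ATP5ME had log2 fold changes of −0.19, −0.22 and −0.28. Each of these lost its call without sgControl replicate 1 or 2, at adjusted p-values of 0.0569 to 0.0764, and COX7B and ATP5ME also without sgControl replicate 3 (0.0651 and 0.0665), and ATP5ME without sgH2AC19 replicate 1 (0.0505). No test of the difference between these lists was made.

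**Figure D4:**
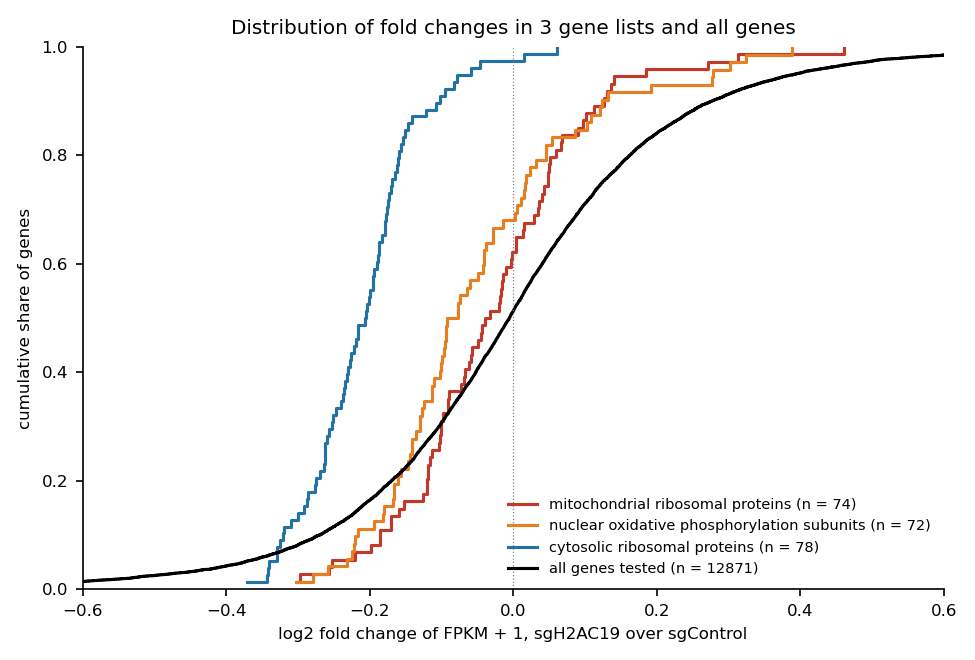
Cumulative share of genes against log2 fold change of FPKM + 1 (sgH2AC19 over sgControl) for 74 mitochondrial ribosomal protein genes (red), 72 nuclear oxidative phosphorylation genes (orange), 78 cytosolic ribosomal protein genes (blue) and all 12871 genes tested (black). The red curve is steeper than the black one and has its median at −0.04, while the blue curve has its median at −0.21. With FPKM rescaled without mitochondrial genome genes the medians were 0.01 and −0.16.

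Many members share a promoter region with a neighbour on the other strand. A protein-coding gene starts on the opposite strand, from 200 bases inside to 1000 bases upstream of the annotated start, for 19 of 78 members (24.4%) and for 1752 of 19831 protein-coding genes (8.83%). The neighbours named here, and the members MRPL52, MRPL50, MRPL30 and MRPS11, were chosen after their values had been seen. EME2, whose start lies 52 bases from that of MRPS34 and which encodes a subunit of a DNA repair nuclease, had 1.90, 1.58 and 1.64 FPKM in sgH2AC19, against 1.58, 1.80 and 1.74 FPKM in sgControl. Its groups overlapped, with a log2 fold change of −0.0028 (SE 0.0749, adjusted p = 0.983 by limma), beside 0.46 for MRPS34. TCP1, a chaperonin subunit gene that starts 63 bases from MRPL18, had a log2 fold change of −0.08 (SE 0.0473, adjusted p = 0.249 by limma), beside −0.25 for MRPL18. SKA3, a gene of the chromosome segregation machinery 43 bases from MRPL57, had a log2 fold change of 0.21 (SE 0.0791, adjusted p = 0.0936 by limma), beside 0.27 for MRPL57. APBA3, 965 bases from MRPL54, had a log2 fold change of −0.22 (SE 0.0905, adjusted p = 0.123 by limma), beside −0.30 for MRPL54. It averaged 1.19 FPKM over the 6 libraries, near the level needed for a test.

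Among the neighbours only SLC7A7, ZNF189 and MITD1 were called, each beside a member that was not, where 23.1% of all genes tested were called. SLC7A7, an amino acid transporter gene 59 bases from MRPL52, rose by 0.35 on the log2 scale (SE 0.0623, adjusted p = 0.00918 by limma), whereas MRPL52, which was not called, had a log2 fold change of −0.19 (adjusted p = 0.0753). ZNF189, a zinc finger gene 259 bases from MRPL50, rose by 0.41 on the log2 scale (SE 0.0604, adjusted p = 0.00462 by limma), and MRPL50 had a log2 fold change of 0.05. MITD1, 21 bases from MRPL30, fell by 0.23 on the log2 scale (SE 0.0676, adjusted p = 0.0467 by limma), and MRPL30 had a log2 fold change of 0.07. MRPL46 and MRPS11 are each other's neighbours, 34 bases apart, and had log2 fold changes of 0.13 and −0.07, neither of them called. The difference between a member and its neighbour was not tested.

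The 4 members that could not be tested were all low in the table and share exons with other genes. MRPL2, the counterpart of bacterial L2 near the peptide bond centre, had 0.594, 0.697 and 0.861 FPKM in sgH2AC19, against 1.03, 1.08 and 0.817 FPKM in sgControl, and shares 14.7% of its exonic bases with KLC4. MRPL38 had 0.458, 0.453 and 0.646 FPKM in sgH2AC19, against 0.735, 0.485 and 0.715 FPKM in sgControl, and shares 41.1% of its exonic bases. In both the groups overlapped. MRPS24 had 0.193, 0.204 and 0.172 FPKM in sgH2AC19, against 0.0317, 0.116 and 0.104 FPKM in sgControl, so all sgH2AC19 libraries were above all sgControl libraries at a level too low for a test. The readthrough gene URGCP-MRPS24 shares 23.2% of its exonic bases. MRPL53 had 0 reads in each sgH2AC19 library and 0, 2 and 1 recovered reads in the sgControl libraries, which is no detectable difference at this depth. Those reads rest on a fitted length of 685 bases, where the annotated length is 1344, so they are uncertain. MRPL53 shares 45.2% of its exonic bases with CCDC142. Whether the low values of these 4 come from the counting of shared exons was not tested.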

How the data were processed

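Per the file headers, the authors deposited FPKM in 1 table with a column for each library, and 0 value columns were left out. Aligner, counter and annotation: not given in the sources used here. The builds in the submitters' processing notes, GRCm38 and mm10, are mouse builds, whereas all 62700 IDs match human Ensembl genes, and annotation here is from GENCODE 29. The members and lists were chosen with earlier results of these data known.

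Genes that reached 1 FPKM in 3 or more libraries were tested as log2(FPKM + 1) with limma 3.58.1 (R 4.3.3, mean-variance trend, two-sided, Benjamini-Hochberg over 12871 genes, threshold 0.05). This scale understates changes of low genes. Reads were recovered from the spacing of the values and were used for a voom alternative. The annotated length gave reads whole within 0.001 for 3759 of these genes and for 17 of the 78 members. For others the smallest length that gave whole reads was taken. That reached 12869 of these genes and all 78 members. A length chosen in this way makes reads whole by choice, so such reads may differ from the true ones by a factor. Whether mates were counted singly was not tested. The fit was tested on simulated data only with changes larger than that of any member tested. Its sensitivity to smaller changes was not tested.

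Named genes were the called members with separated groups, the 4 highest and 4 lowest tested members, the untested members, up to 3 called genes per direction in each other list, both rRNA genes, H2AC19 and H2AC18. Some other genes were named after their values were seen, as stated. A gene that this rule takes is not reported here.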

Additional observations from a re-analysis of the deposited data

How the results depend on the processing

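MRPS34 and MRPL18 were called under all 14 alternatives, MRPL57 under 12, MRPL54 under 10 and MRPL34 under 8, and 0 of the named genes that were called changed sign. Of those not called, MRPS35, MRPL45, MRPL51, MRPS25 and MT-RNR2 changed sign in at least 1 alternative, at log2 fold changes of −0.02 to 0.03 there. With all genes above 0 FPKM tested (36938 genes) 1553 genes and 1 lower member were called, and the cause was not tested. There the calls of SLIRP (limma adjusted p = 0.130), SSBP1 (0.107), ATP5ME (0.0648) and COX7B (0.0528) were lost too. With the replicate number as a block 5 members were lower (MRPL33 and MRPS26 besides the 3), 2 were higher and 2729 genes were called. Whether the replicate numbers pair the libraries could not be told. Same-number correlations of deviations from the group mean were low, at 0.0524, 0.0346 and 0.0602, although each library correlated best with its own number. With voom 5 members were lower, 3540 genes were called and ATP5ME lost its call (adjusted p = 0.0994), and the counts of 0 given for other lists and for lower small subunit members were 0 as well. Rescaling without mitochondrial genome genes called 2002 genes higher and 1093 lower, against 1545 and 1422, and moved the median of all genes to 0.03. Leaving out 1 library at a time gave 1513 (without sgControl replicate 2) to 3429 (without sgH2AC19 replicate 3) called genes, 1 to 4 lower members and 1 to 2 higher members. The members' median log2 fold change ran from −0.05 to 0.01 over all alternatives. With 3 libraries a group the members' intervals had a median half-width of 0.15 on the log2 scale, which limits what could be seen.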
